A study of Zea mays with 15 samples.

Results

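The stretch described here runs over 21.1 Mb of maize chromosome 1, from position 253459348 to 274578972 of the deposited table, whose genome build is not named. Its members are all genes whose region starts within these bounds, 519 of the 39145 genes of the table. It was chosen by the read counts of these libraries, because several genes with higher reads under UV-B lie there, and its bounds are the starts of the first and the last of them. The UV-B difference of the members is therefore a description. The edgeR calls, made over all genes, only say which genes the stretch was drawn around, and they are no test of the stretch or support for it. Of the 519 genes, 73 had no read, 63 had 1 to 9 reads and 383 had at least 10 reads over the usable libraries. The abundance filter left 341 genes for the fits, and 42 genes with at least 10 reads were not tested.

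RNA was sequenced from the growth zone of leaf 4 of the inbred line B73, 3 days after the leaf emerged. UV-B plants grew outdoors under a plastic that let solar UV-B through (1.5 W/m2 on average at noon), and control plants under one that absorbed most of it (0.35 W/m2), both with 8 W/m2 of UV-A. The basal 3 cm of the leaf were cut into adjacent segments, with zone 1 covering 0 to 1 cm above the base, zone 2 covering 1 to 2 cm and zone 3 covering 2 to 3 cm. UV-B zones 1, 2 and 3 had 1, 3 and 2 usable libraries and control zones 1, 2 and 3 had 3, 2 and 3, labelled as biological replicates.

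The base of a grass leaf holds dividing cells, which expand and then green as they are displaced towards the tip. Growth-regulating factors and their coactivator GIF1 act in the dividing tissue, and KNOX homeobox proteins such as that of kn1 mark the shoot meristem below it. UV-B is sensed by plants through the photoreceptor UVR8, and slows leaf growth at high doses.

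Depth ranged from 1673416 to 19221143 reads in UV-B libraries and from 2007679 to 17923081 in control libraries, so that 3 reads correspond to between 0.156 and 1.79 CPM (counts of a gene per 1000000 reads of all genes). UV-B zone 3 replicate 1 was nearly empty and was left out. Depth fell along the leaf in both treatments. Control zones 1, 2 and 3 held 11147867 to 17923081, 4568682 to 7840247 and 2007679 to 6222019 reads per library. UV-B zones 1, 2 and 3 held 19221143, 9471340 to 13887955 and 1673416 to 4665312. Zone contrasts thus also set deeper against shallower libraries, and the part of depth in them was not tested. The stretch took 1.46% to 1.74% of the reads of a UV-B library and 1.53% to 1.74% of those of a control library. Markers followed the labelled zones: the small Rubisco subunit gene ssu1 averaged 446 CPM in UV-B zone 3 and 357 in control zone 3, against 4.01 in UV-B zone 1 and 8.11 in control zone 1. The replication gene RNRL2 averaged 11.3 CPM in UV-B zone 3 and 14.3 in control zone 3, against 117 in UV-B zone 1 and 139 in control zone 1. In bulk tissue, fewer cells of a type and less RNA per cell cannot be told apart.

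The genes that fixed the stretch are 5 of its 341 tested members (1.47%), called higher under UV-B in the additive edgeR fit of zone and treatment over all genes (adjusted p under 0.05), while 0 were called lower. Over all 23899 genes, 5 (0.0209%) were called higher, 2 (0.00837%) lower and 7 (0.0293%) in either direction. All genes called higher thus lie in the stretch. Nothing is read from this or from the difference in shares, since the first and the last gene called higher are the bounds of the stretch. The called members are GRMZM2G445139, GRMZM2G039373, GRMZM2G085873, GRMZM2G036640 and GRMZM5G877929, in order of position. Neighbouring ones lie 5.04, 1.92, 4.16 and 9.99 Mb apart, with 70, 30, 68 and 168 tested members between them. None has an informative name in the sources used here. The other 336 tested members were not called, and the median log2 change was 0.01 over the members and -0.01 over all genes.

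**Figure D1:**
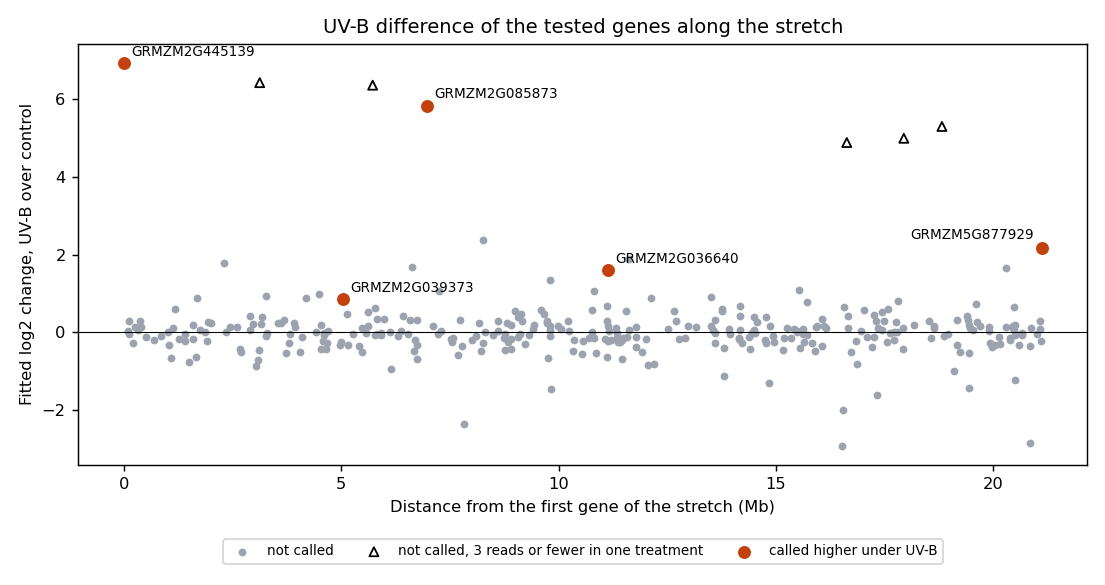
Fitted log2 change of UV-B over control (vertical axis) of each of the 341 tested members by distance from the first gene in Mb (horizontal axis). The 5 called genes (filled, named) stand apart from each other among genes near 0, and open triangles are genes with 3 reads or fewer in one treatment, whose fitted value depends on the prior count, as do those of GRMZM2G445139 and GRMZM2G085873.

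GRMZM2G445139 (253459348 to 253464451, 1 transcript of 2471 bases in 8 exons) opens the stretch. It had 12.6 CPM in UV-B zone 1, 3.48, 4.18 and 7.57 in UV-B zone 2 and 6.0 and 5.38 in UV-B zone 3. In control libraries it had 0, 0 and 0 CPM in zone 1, 0.219 and 0 in zone 2 and 0, 0.195 and 0.161 in zone 3. Every UV-B library lay above every control library. All 6 UV-B libraries together held 461 reads and the 8 control libraries 3, each in a different library. The pooled ratio was 174, with a 95% interval of 59.1 to 846 that covers counting error only. All its 464 reads were unique to its transcript.

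GRMZM2G085873 (260424100 to 260427079, 1 transcript of 602 bases) was also near 0 in control leaves. It had 2.03 CPM in UV-B zone 1, 1.27, 0.576 and 1.25 in UV-B zone 2 and 1.07 and 0 in UV-B zone 3. Among control libraries only zone 1 replicate 2 had a read, at 0.0558 CPM. UV-B libraries held 79 reads against 1 in control libraries, a pooled ratio of 89.4 with a counting interval of 15.6 to 3576. Its call ended by limma-voom, on leaving out replicate 2 of UV-B zone 3, and on leaving out replicate 2 of control zone 1. Without UV-B zone 1 replicate 3, which held 39 of its 80 reads, it did not pass the abundance filter and was not tested.

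GRMZM2G036640 (264587455 to 264589878, 2 transcripts) was expressed in every library and had 71.9 CPM in UV-B zone 1, 58.9, 56.0 and 58.2 in UV-B zone 2 and 43.9 and 49.6 in UV-B zone 3. In control libraries it had 19.6, 19.8 and 22.2 CPM in zone 1, 20.1 and 15.4 in zone 2 and 20.4, 14.4 and 16.2 in zone 3. The treatments did not overlap, and the ratio of UV-B to control means was 3.50, 3.25 and 2.75 in zones 1, 2 and 3. The fitted log2 change was 1.60 ± 0.12 (SE, 6 UV-B and 8 control libraries). That SE counts zones with the same replicate number as independent libraries. Only 5.46% of its reads were unique to 1 transcript, and reads shared by its own transcripts and by other genes cannot be told apart. On unique reads the log2 change was 1.35 and the call ended. By total reads, most of them not unique to either transcript, T02 took 77.3% under UV-B and 65.7% in control. The split between transcripts is therefore uncertain.

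GRMZM2G039373 (258499166 to 258506168, 3 transcripts) showed the smallest change of the called members. It had 33.9 CPM in UV-B zone 1, 45.2, 40.8 and 42.2 in UV-B zone 2 and 54.4 and 58.6 in UV-B zone 3. In control libraries it had 19.5, 21.0 and 20.6 CPM in zone 1, 22.8 and 22.3 in zone 2 and 32.4, 26.5 and 26 in zone 3. The treatments did not overlap over all libraries, with ratios of means of 1.66, 1.90 and 2.00 in zones 1, 2 and 3 and a log2 change of 0.86 ± 0.11 (SE). Of its reads 46.6% were unique, and on these the log2 change was 1.06 with the call lost.

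GRMZM5G877929 (274578972 to 274579305, 1 exon of 333 bases) closes the stretch. It had 17.6 CPM in UV-B zone 1, 10.7, 16.6 and 24.1 in UV-B zone 2 and 33.2 and 59.8 in UV-B zone 3. In control libraries it had 3.05, 3.29 and 1.70 CPM in zone 1, 4.16 and 3.32 in zone 2 and 20.9, 10.7 and 6.75 in zone 3. UV-B libraries lay above control libraries within each zone, but control zone 3 overlapped UV-B libraries of other zones. The ratios of means were 6.58, 4.59 and 3.63 in zones 1, 2 and 3 and the log2 change was 2.16 ± 0.26 (SE). All reads were unique. Its call ended without UV-B zone 1 replicate 3, the only library of its group.

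**Figure D2:**
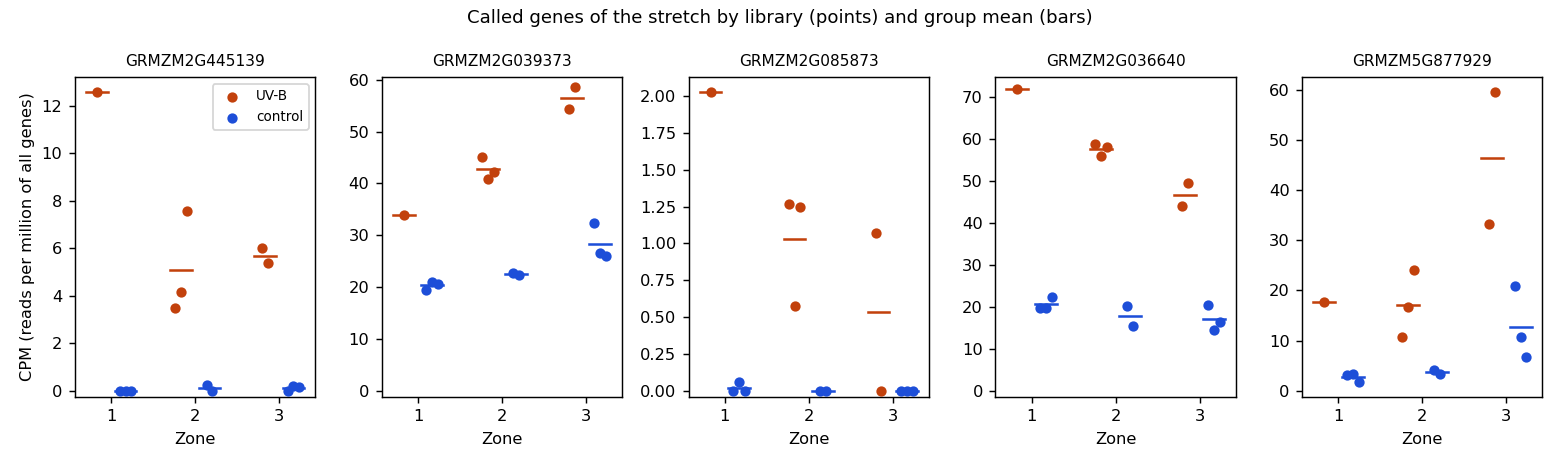
CPM (vertical axis, from 0) of the 5 called genes in each usable library by zone (horizontal axis), UV-B left and control right, with group means as bars. GRMZM2G445139 and GRMZM2G085873 sit at or near 0 in control libraries, whereas the other genes are expressed in both treatments.

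The nearest tested genes on either side, 10 in all, had log2 changes of -0.32 to 0.47. GRMZM2G036505, which ends 1.75 kb before GRMZM2G036640, had 0.29, and GRMZM2G037152, 5.06 kb beyond it, had -0.21. GRMZM2G396451, 1.22 kb before GRMZM5G877929, had -0.22. At the bounds, the first tested genes outside were GRMZM2G141379 (-0.10) and GRMZM2G141332 (-0.22) at the low end and GRMZM2G095511 (0.14) and GRMZM2G301071 (-0.29) at the high end. Just inside lay GRMZM2G070061 with 0.04 and GRMZM2G396451. Cut into 7 equal bins of 39 to 61 tested members, the stretch had median log2 changes of -0.05 to 0.07.

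**Figure D3:**
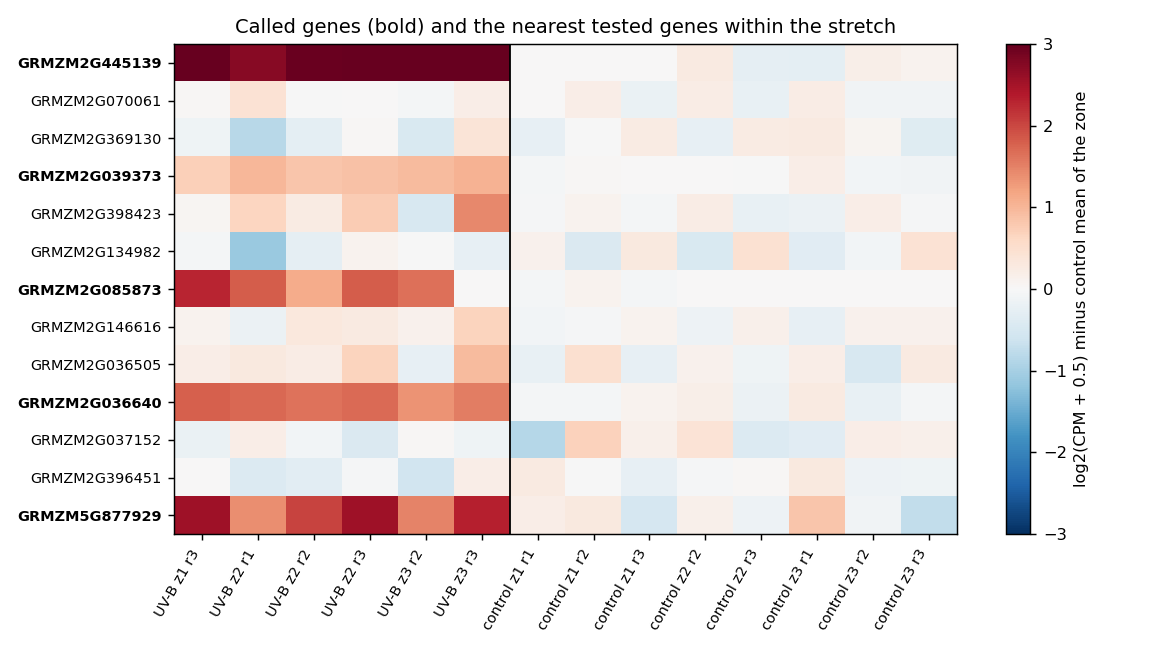
Difference of log2(CPM + 0.5) from the control mean of the same zone (colour, cut at 3 in either direction) for the called genes (bold) and the nearest tested genes within the stretch (rows), by library (columns, z for zone and r for replicate). The bold rows are red across UV-B libraries, apart from GRMZM2G085873 in UV-B zone 3 replicate 3, which had no read.

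Libraries of the treatments were also set side by side within zones. In zone 2 and in zone 3 together, UV-B libraries lay wholly above control libraries for 11 of 383 members (2.87%, against 1.03% of all genes) and wholly below for 5 (1.31%, against 0.564%). The 11 hold 4 of the called genes. Of the 378 members not called, 7 (1.85%) lay above, and nothing is read from these shares, since the same values chose the stretch. GRMZM2G014951 (260714697 to 260715968) had 22.3, 15.4 and 28.8 CPM in UV-B zone 2 and 19.1 and 22.1 in UV-B zone 3, against 9.63 and 6.50 in control zone 2 and 18.4, 13.6 and 9.96 in control zone 3. GRMZM2G092433 (259592107 to 259598684) went the other way, with 17.6, 20.7 and 33.3 CPM in UV-B zone 2 and 17.4 and 32.9 in UV-B zone 3, against 46.0 and 64.8 in control zone 2 and 37.4, 40.7 and 43.4 in control zone 3. Its log2 change was -0.94, and it was called only with UV-B zone 3 replicate 1 kept, by DESeq2 or with the replicate block. GRMZM2G133633 (261720798 to 261723642) had 1.06, 2.30 and 5.57 CPM in UV-B zone 2 and 2.57 and 0.598 in UV-B zone 3. It had 0.657 and 0.383 CPM in control zone 2 and 0.498, 0.195 and 0 in control zone 3. In zone 3 its separation rests on 0.598 CPM (UV-B replicate 3) against 0.498 CPM (control replicate 1). Both lie under 3 reads of their library (1.79 and 1.49 CPM), so its zone 3 values do not show a difference. GRMZM2G081822 (259240114 to 259241416) had 13.7, 10.7 and 14.2 CPM in UV-B zone 2 and 33.7 and 50.8 in UV-B zone 3, against 7.22 and 8.42 in control zone 2 and 31.4, 25.5 and 27 in control zone 3. By their log2 changes, the further members named by this rule were GRMZM2G133633 (2.37), GRMZM2G147900 (1.64), GRMZM2G081822 (0.62) and GRMZM2G436429 (0.36), higher under UV-B, and GRMZM2G469224 (-0.82) and GRMZM2G015073 (-0.48), lower. None of these 8 was called in the reported fit.

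All 6 UV-B libraries lay above all 8 control libraries for 4 members (background 0.0479%), and below them for 0 members (background 0.00737%). These are GRMZM2G036640, GRMZM2G039373, GRMZM2G445139 and D8 (GRMZM2G144744, 266160100 to 266163168), which encodes a DELLA protein, a repressor of gibberellin response. The first 3 of these are called genes, and nothing is read from the count. D8 was named after its values were seen. It had 93.2 CPM in UV-B zone 1, 107, 89.5 and 90.9 in UV-B zone 2 and 132 and 96.8 in UV-B zone 3. In control libraries it had 71.7, 78.7 and 75.4 CPM in zone 1, 84.1 and 85.2 in zone 2 and 79.2, 83.7 and 84.7 in zone 3. Its fitted log2 change was 0.28, and it was not called.

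A few members had reads in some libraries of 1 treatment and next to none in the other. Off in one replicate set and on in another were 2 of 383 members (0.522%, background 0.582%), GRMZM2G445139 and GRMZM2G396090. Nothing is read from this share. GRMZM2G396090 (259178799 to 259181471) had 181 reads, all in UV-B zone 2 replicate 1 (19.1 CPM), and 0 in the other 13 usable libraries. That library is the only usable one of its replicate set, so for this gene the rule rests on 1 library. GRMZM2G163796 had 58 reads and GRMZM2G049349 36 reads, each in 4 UV-B libraries and in 0 control libraries. Against a floor of 3 reads over the control group they were at least 21.9-fold and at least 13.6-fold higher under UV-B. UV-B zone 1 replicate 3 held 37 of the 58 reads of GRMZM2G163796, and without that library the gene was at least 11.6-fold higher. No read in any control library was found for 3 members (0.0848% of all genes) and no read in any UV-B library for 1, GRMZM5G863645, with 20 control reads (0.147% of all genes). GRMZM2G056914 had 57 UV-B reads and 1 control read. Members with few reads also went the other way. Among them were GRMZM2G347762 (1 UV-B and 21 control reads), GRMZM2G094404 (2 and 18) and GRMZM2G353497 (3 and 13). The homeobox gene kn1 had 52 UV-B reads and 1 control read, but 50 of them came from UV-B zone 1 replicate 3 (2.60 CPM), whose group has no other library.

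Between zones 2 and 3 no difference of the UV-B effect was detected, with 2 or 3 libraries per group. So few libraries can miss such a difference. For the contrast of the UV-B effect in zone 3 with that in zone 2, 0 of 341 members and 0 of 23899 genes passed edgeR's adjusted p of 0.05 (background 0%), with 7 members and 454 genes (1.9%) at an unadjusted p under 0.05 and 0 members by DESeq2 or limma-voom. The log2 difference of effects was -0.27 ± 0.29 (SE) for GRMZM2G036640, 0.04 ± 0.25 for GRMZM2G039373 and -0.33 ± 0.63 for GRMZM5G877929. UV-B zone 1, with 1 library, was not part of this contrast.

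Along the leaf, by contrast, members differed widely. Between control zone 3 and control zone 1, 187 of 341 members (54.8%) passed the edgeR test, 92 higher and 95 lower in zone 3. The background was 51.3% of all genes, 25.6% higher and 25.7% lower, and the median log2 change was -0.02 both over the members and over all genes. In the 7 bins, 46.3% to 68.6% of the tested members passed. That fit did not use the replicate number, although same-numbered libraries of these zones deviated together (correlations of 0.287 to 0.548). The steps between adjacent zones called fewer members. Control zone 2 against control zone 1 called 29 (background 8.33%), 22 higher (6.63%) and 7 lower (1.69%), and control zone 3 against control zone 2 called 53 (13.3%), 23 higher (5.86%) and 30 lower (7.46%). UV-B zone 3 against UV-B zone 2 called 26 (6.85%), 12 higher (3.35%) and 14 lower (3.5%). Leaving out replicate 2 of UV-B zone 2 gave 5 such members, leaving out replicate 2 of UV-B zone 3 gave 40 and leaving out its replicate 3 gave 0. Between control zones 2 and 1 it was 13, 16 and 17 without control zone 1 replicate 1, 2 or 3, and 12 and 18 without control zone 2 replicate 2 or 3. Between control zones 3 and 2 it was 10 without control zone 2 replicate 3 and 26 and 22 without control zone 3 replicate 1 or 3.

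**Figure D4:**
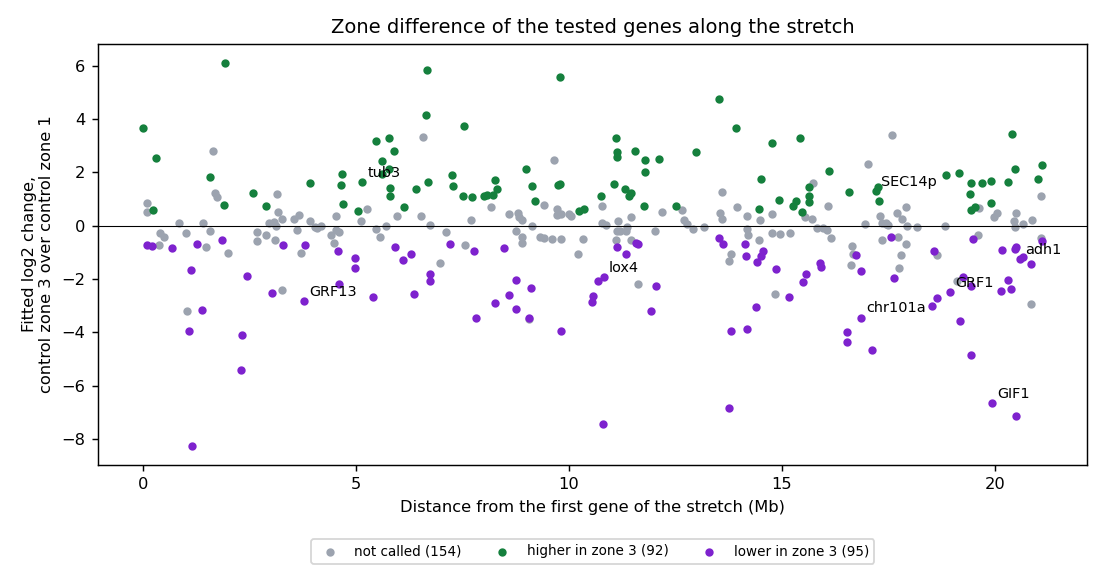
Fitted log2 change of control zone 3 over control zone 1 (vertical axis) of the 341 tested members by distance from the first gene in Mb (horizontal axis), coloured by the edgeR call. The 92 higher and 95 lower genes are spread over the whole stretch.

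By symbol, 40 members were named, 33 of them with at least 10 reads and 31 tested. Of these, 7 were higher in control zone 3 than in control zone 1 (background 25.6% of all genes), 10 were lower (25.7%) and 14 did not pass. Between UV-B and control 0 of the 31 were called (background 0.0293%). The named groups below hold few genes, and nothing is read from their counts. Among growth regulators, 3 of 5 tested members fell and 0 rose. GIF1 (GRMZM2G180246, 273393235 to 273396891) had 0.498, 0.779 and 0.643 CPM in control zone 3 against 68.3, 92.8 and 62.1 in control zone 1, a log2 change of -6.67 ± 0.37 (SE, edgeR adjusted p = 1.57e-06). In UV-B leaves it had 0 and 0 CPM in zone 3, 6.97, 6.48 and 5.32 in zone 2 and 83.2 in zone 1. The growth-regulating factor genes GRF13 and GRF1 fell by 2.83 and 2.50 on the log2 scale, and GRF1 by 4.27 on unique reads (5 in control zone 3 and 318 in control zone 1). GRF1 (GRMZM2G178261) had 20.9, 24.7 and 18.2 CPM in control zone 3 against 113, 136 and 137 in control zone 1. D8 did not pass, with a log2 change of 0.22 ± 0.20 (SE).

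Of 7 tested members in other transcription factor families, 1 rose and 1 fell. The bHLH gene bHLH27 (GRMZM2G092091) fell by 2.70 on the log2 scale. It had 0 unique reads in control zone 3 and 187 in control zone 1, so no fold is given on unique reads. The gene sig2B, for a plastid sigma factor, rose by 1.57 on the log2 scale. In signalling, HK1b1, a histidine kinase gene of the cytokinin receptor type, fell by 1.83 and CBL3, for a calcium sensor, rose by 0.57. On unique reads CBL3 had -0.37, near the median of all genes, which was also negative there. No reversal is therefore read from it. The gene chr101a (GRMZM2G071025, 270318385 to 270325104) had 21.9, 21.2 and 14.1 CPM in control zone 3 against 236, 175 and 251 in control zone 1, a log2 change of -3.46 ± 0.43 (SE).

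The lipoxygenase genes lox3 and lox4 lie next to each other and were both lower in zone 3. lox4 (GRMZM2G109056, 264275082 to 264291510) had 8.47, 13.4 and 6.75 CPM in control zone 3 against 35.6, 42.2 and 40.3 in control zone 1 (log2 change -1.94 ± 0.28 SE, edgeR adjusted p = 0.000142). lox3 (GRMZM2G109130, 264266380 to 264271190) had 0 CPM in each control zone 3 library, and 2.78, 2.23 and 2.12 in control zone 1. In UV-B zone 3 it had 0.429 and 0.598 CPM, both under 3 reads of those libraries (0.643 and 1.79 CPM). Nothing is read from these values against the 0 CPM of control zone 3. The UV-B effect of lox3 did not pass the interaction test.

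In primary metabolism, the alcohol dehydrogenase gene adh1 (GRMZM2G442658) had 96.6, 107 and 106 CPM in control zone 3 against 326, 254 and 207 in control zone 1 (log2 change -1.26 ± 0.20 SE, edgeR adjusted p = 0.000295). The gene lw1 (GRMZM2G027059), for the last enzyme of the plastid isoprenoid pathway, rose by 0.71 on the log2 scale, with 90.7, 92.9 and 108 CPM in control zone 3 against 57.4, 66.9 and 66.2 in control zone 1. The glutamine synthetase gene gln2 rose by 1.76 on the same scale, at 5.73 ± 1.95 CPM in control zone 3 and 1.83 ± 1.34 in control zone 1 (SD, n = 3 each). Of 4 members of cytoskeleton and transport, 2 rose. The tubulin gene tub3 (GRMZM2G108766) had 103, 94.3 and 103 CPM in control zone 3 against 48.8, 27.0 and 28.4 in control zone 1. Its log2 change was 1.62 ± 0.29 (SE). On unique reads it was -0.44, near the negative median of all genes there. That value rests on 8 unique reads in control zone 3 and 31 in control zone 1, so no reversal is read from it. SEC14p, for a lipid transfer protein, rose by 1.29.

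**Figure D5:**
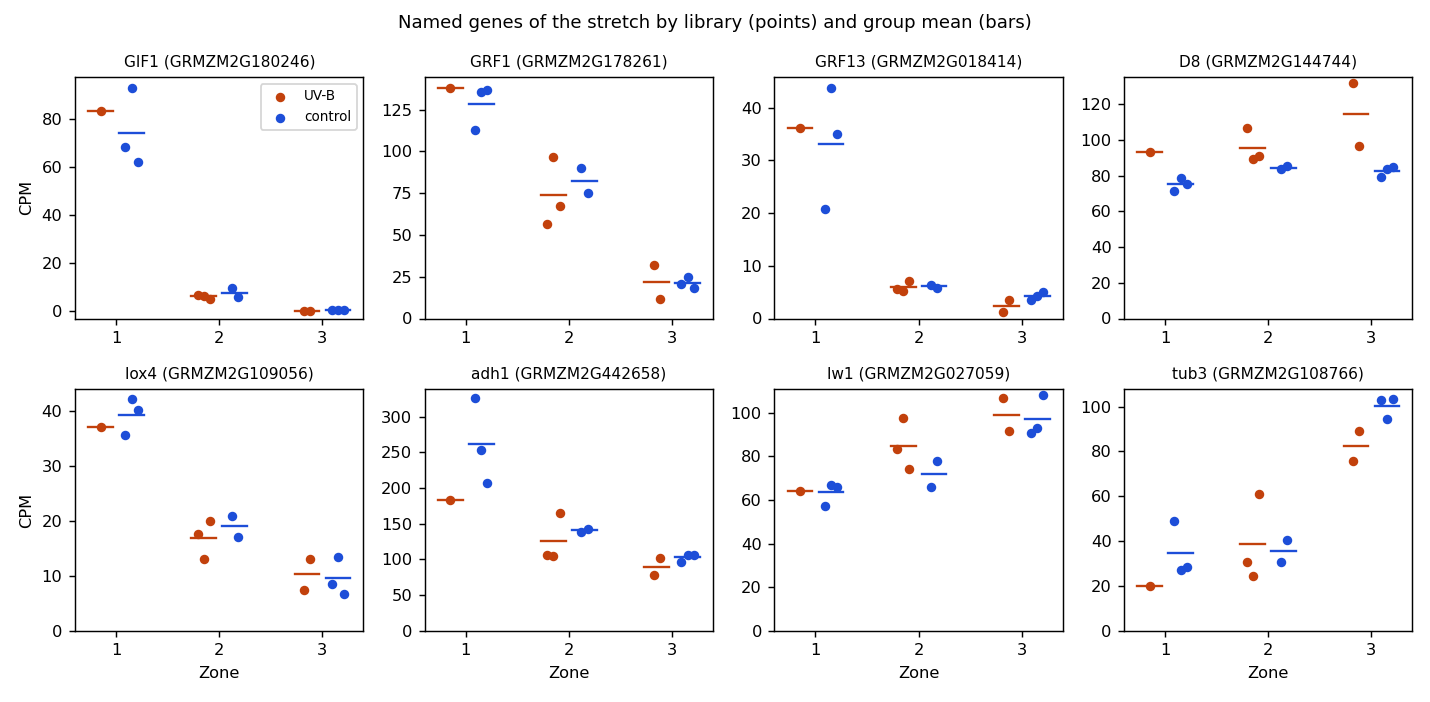
CPM (vertical axes) of 8 named members in each usable library by zone (horizontal axes), UV-B left and control right, with group means as bars. GIF1, GRF1, GRF13, lox4 and adh1 are lower in zone 3 than in zone 1, and lw1 and tub3 higher, in both treatments, while D8 is higher in each UV-B library than in each control library.

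Of the called UV-B genes, 2 differed along control leaves on ample reads. GRMZM5G877929 was higher in control zone 3 than in control zone 1 by 2.27 ± 0.42 (SE, log2 scale, edgeR adjusted p = 0.000792) and GRMZM2G039373 by 0.55 ± 0.16 (adjusted p = 0.0128). GRMZM2G039373 had 0.88 on unique reads. GRMZM2G036640 did not pass (-0.21 ± 0.18 SE), but on unique reads it was called lower in zone 3 at -3.27 (edgeR adjusted p = 0.00295), with 2 unique reads in control zone 3 and 63 in control zone 1. GRMZM2G085873, with 1 control read, was not called. GRMZM2G445139 passed at an adjusted p of 0.0314, but on 2 reads in control zone 3 and 0 in control zone 1, so no fold is given, and the call ended in 6 of 22 alternatives.

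By level, 75 of the 383 members averaged under 1 CPM, 89 from 1 to 10, 185 from 10 to 100 and 34 at least 100 CPM, against 22.3%, 26.7%, 42.8% and 8.16% of all genes. The alpha-tubulin gene TUBA2 (GRMZM2G153292) had 2391 to 3628 CPM over the libraries and held 17.5% of the reads of the stretch. It matches more than 1 tubulin record, and near-identical tubulin genes can share reads. Per kb of its longest transcript it had 1266 to 1920 CPM. GRMZM2G118003 came next by mean CPM, with 219 to 583 CPM per kb, followed by GRMZM2G047055 with 137 to 352 CPM per kb, GRMZM2G068471 with 40.7 to 280 and GRMZM2G153476 with 69.3 to 432.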

How the data were processed

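The authors deposited 1 table with read counts per transcript (total reads, and reads unique to it) beside RPKM, per the file headers. The sources used here name neither aligner nor strand setting nor genome build. Libraries were made with a stranded mRNA kit and sequenced in paired runs of 25 cycles, and samples with a low yield were sequenced again, per the labels' protocols. Unique reads made up 45.3% to 47.9% of a library. The deposited RPKM was checked against total reads over transcript length and was not a fixed multiple of it within a library. For genes with 1 transcript the 5th percentile of that ratio lay at 0.418 to 0.568, while the median was 0.893 to 0.968, and 1111 to 1345 transcripts with reads per library were listed at 0. Levels per length were therefore computed as CPM per kb of the longest transcript, a choice made after the data were seen, and RPKM was used for this check only. A further 21 value columns, of 3 libraries absent from the labels, were left aside.

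Total reads of 62892 transcripts were summed to genes. The fits used edgeR 4.0.16 under R 4.3.3 (filterByExpr over 6 groups, TMM, two-sided quasi-likelihood F test, Benjamini-Hochberg over 23899 genes, 0.05) over 14 libraries, without UV-B zone 3 replicate 1. Each SE is the absolute log2 change divided by the square root of its F statistic. It is no standard error reported by the fit. Zone and treatment were additive terms for the UV-B effect, and the other contrasts came from 6 group means. Both designs counted zones of the same treatment and replicate number as independent libraries. Same-numbered zones of a treatment correlated at 0.0997 to 0.667 in their deviations. The SE and adjusted p of the UV-B effect are therefore likely too small. Because UV-B zone 1 has 1 library, the spread was shared over the groups. Same-numbered libraries of control zones 3 and 1 deviated together (correlations of 0.548, 0.287 and 0.505), so the numbers may pair these samples. Correlations of differently numbered libraries were not set beside these. The reported zone values do not use the numbers, and with the number as a block 217 members were called between control zones 3 and 1. Named genes were the called UV-B genes, their nearest tested genes and those at the bounds, named members with the largest zone changes, the 5 most abundant members, members whose treatments did not overlap within zones 2 and 3, and members off in one set of libraries and on in another. Alternatives were other filters and scalings, DESeq2 1.42.0, limma-voom 3.58.1, unique reads, a replicate block, a stricter threshold and leaving out each library. The scripts were tested on simulated data. Names were taken from RefSeq records for Zm-B73-REFERENCE-NAM-5.0, with 262 members matching a record. These records give no gene descriptions, so members were grouped by symbol in place of the planned grouping by description. The members and lists were chosen with earlier results of these data known.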

Additional observations from a re-analysis of the deposited data

How the results depend on the processing

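Between control zones 3 and 1, 128 to 217 members were called over all alternatives (153 to 198 on leaving out 1 library, 187 in the reported fit), and no member was called for the difference of UV-B effects between zones 3 and 2 under any alternative. The smaller counts moved more. The alternative counts cover members only, and the share of all genes called under each alternative is not set beside them. Whether a change in count is particular to the stretch was therefore not tested. Control zone 2 against control zone 1 called 29 members, against 52 by DESeq2, 8 on unique reads, 68 with the replicate block, 10 at an adjusted p under 0.01 and 12 to 38 on leaving out 1 library. Control zone 3 against control zone 2 called 53, against 20 on unique reads, 111 with the block, 12 at 0.01 and 10 to 66 on leaving out 1 library. UV-B zone 3 against UV-B zone 2 called 26, against 45 by DESeq2, 14 by limma-voom, 7 on unique reads, 81 with the block, 4 at 0.01 and 0 to 40 on leaving out 1 library. UV-B against control called 5, against 11 by DESeq2, 3 on unique reads, 7 with the block and 3 to 5 on leaving out 1 library (3 without UV-B zone 1 replicate 3). The block uses the labelled replicate numbers. For UV-B against control it joins UV-B and control libraries of the same number. It therefore does not account for zones that deviate together within a treatment. Same-numbered UV-B and control libraries correlated at -0.14 to 0.54, and their titles carry other numbers (3, 4 and 7 in control, 7, 8 and 9 under UV-B) that the labels do not explain. The other zone contrasts have 2 pairs each, correlating at 0.616 and 0.667 (control zones 2 and 1), 0.0997 and 0.458 (control zones 3 and 2) and 0.520 and 0.666 (UV-B zones 3 and 2). In zone 2, the libraries with the title number 7 had 45.2 (UV-B) and 22.3 CPM (control) of GRMZM2G039373, 58.9 and 15.4 of GRMZM2G036640, 10.7 and 3.32 of GRMZM5G877929, 3.48 and 0 of GRMZM2G445139, 1.27 and 0 of GRMZM2G085873, and 17.6 and 64.8 of GRMZM2G092433. Unique reads moved the median of all genes to -0.32 between control zones 3 and 1 on the log2 scale. On these reads tub3, at -0.44, and CBL3, at -0.37, lay near that median. The call of lw1 ended on unique reads (0.54, edgeR adjusted p = 0.0530). GRMZM2G085873, with 1 control read, had log2 changes between these zones of 0.91 by DESeq2, 1.34 by limma-voom and -1.72 to 0 on leaving out 1 library (0 without control zone 1 replicate 2). The cause of these changes was not tested. UV-B zone 1 rests on 1 library.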
